A study of Mus musculus with 4 samples.

Results

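A stretch of 350 kb of distal mouse chromosome 7, from position 137050000 to 137399999 of build mm6, was examined for contacts with the H19 imprinting control region (H19 ICR). Its members were all tiling probes of the arrays whose position lies within these bounds, with or without a region label of the array design. They are 3938 of the 388160 tiling probes (1.01%), and random control probes were left out. The bounds are set by position and not by signal, and the stretch is called the flank below because it lies between the strongest 4C signal of the tiled distal region and the telomere. The labels and headers give no mm6 position for the bait itself. All positions below are on chromosome 7 of mm6.

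The data are 4 two-colour tiling arrays, 2 of undifferentiated mouse embryonic stem (ES) cells of line R1 and 2 of embryoid bodies (EB), the aggregates in which ES cells differentiate, taken after 12 days. Both groups derive from a single cell line, and no added gene or drug treatment is named in the labels. Every array carried the amplified product of circular chromosome conformation capture (4C) in Cy5 and, in Cy3, genomic DNA of those cells cut with MboI, with no dye swap. Each replicate was a pool of 3 samples, per the series' design text, and the replicate number is also the scan batch, since each batch held 1 ES and 1 EB array.

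The H19 ICR is a differentially methylated element upstream of H19, a gene for a non-coding RNA. On the maternal chromosome it is unmethylated and bound by the insulator protein CTCF, which keeps the growth factor gene Igf2 from the enhancers beyond H19. On the paternal chromosome the element is methylated, H19 is silent and Igf2 is active. In 4C, DNA that lies close to a bait in the nucleus is joined to it by ligation and then amplified, so that hybridisation signal marks fragments that were ligated to the bait. In the RefSeq order of genes on a later build, Igf2, Ins2 (insulin), Th (tyrosine hydroxylase, of catecholamine synthesis) and Ascl2 (a transcription factor of the placenta) follow H19 towards the telomere. An annotation of mm6 was not used here, so none of these genes is placed within the flank.

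Signal is given as log2 of the Cy5 intensity minus the log2 median of all tiling probes of the same array. Probes at or above 1 log2 unit, a 2-fold excess, were taken as positive. A run is a row of 3 or more neighbouring positive probes that are no more than 300 bp apart. The array medians of Cy5 were 969 and 1521 intensity units in ES replicates 1 and 2 and 543 and 1638 in EB replicates 1 and 2, close to those of the random controls (963, 1481, 534 and 1607). The scanner saturates 6.08, 5.43, 6.92 and 5.32 log2 units above these medians, in the same order, and hides any signal beyond. The number of arrays, 2 in each group, limits the precision of every value.

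The flank was tiled with a median spacing of 52 bp between probe starts. Of its length, 41.5% lay in 119 gaps of over 300 bp, the longest 13472 bp, for which there is no measurement. Of the members, 3784 carried the label of the tiled distal region (136488552 to 138655803) and 154 carried none.

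The flank held 4C signal in ES cells and little in embryoid bodies. In ES replicate 1, 8.08% of its probes (318) lay in runs, and in ES replicate 2 10.5% (413). In EB replicate 1 the share was 0.254% (10 probes), and in EB replicate 2 0.686% (27 probes). The groups did not overlap, and both ES arrays lay more than 10-fold above both EB arrays. Group means were 9.28% ± 1.71 in ES and 0.470% ± 0.305 in EB (SD, n = 2). The difference was 8.81 percentage points, and within replicates 1 and 2 it was 7.82 and 9.80. By a two-sided exact permutation test p was 0.33, the smallest value that 2 arrays against 2 can give. The EB share was 3.40% with normexp-corrected Cy5 and 3.12% when the ratio of Cy5 to Cy3 was read in place of Cy5, while the difference from ES was 9.17 and 8.49 points.

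The mean signal over all flank probes was 0.38 and 0.56 log2 units in ES against 0.022 and 0.096 in EB. The means were 0.47 ± 0.13 in ES and 0.059 ± 0.052 in EB (SD, n = 2, exact permutation p = 0.33). The median probe lay near 0 in both groups, with 0.067 ± 0.030 in ES and 0.016 ± 0.014 in EB (SD, n = 2), so that the difference of the means came from a small share of the probes. Of the flank probes outside the runs of an array, 2.23% ± 0.58 were positive in ES and 1.25% ± 1.16 in EB (SD, n = 2). These groups overlapped (1.82% and 2.64% in ES, 0.433% and 2.07% in EB, exact permutation p = 0.667).

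**Figure D1:**
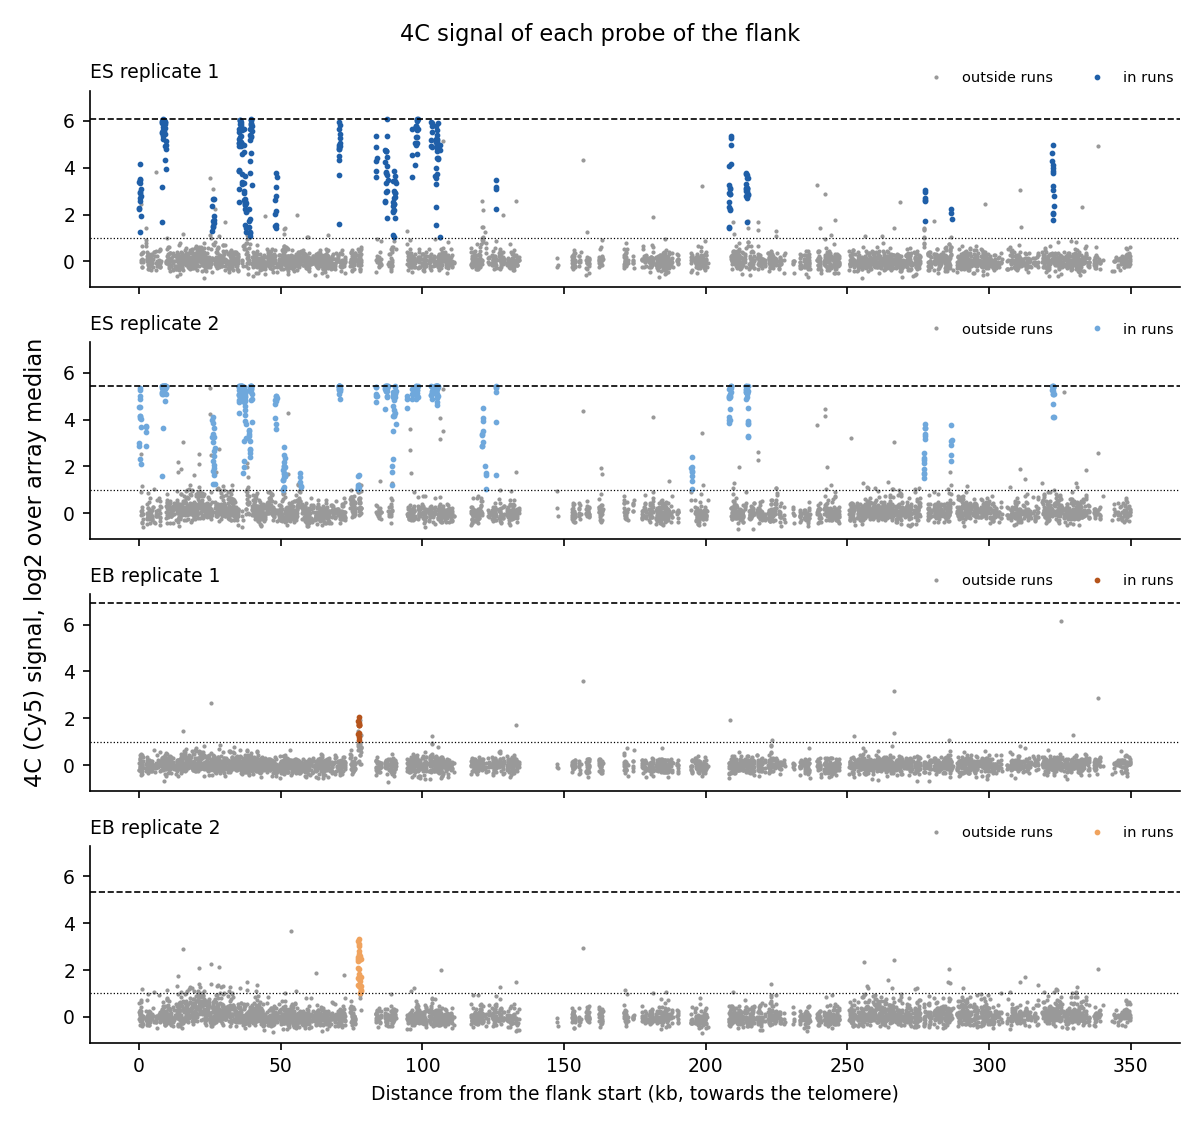
The 4C signal of every probe of the flank (log2 over the array median) against its distance from the start of the flank in kb, with 1 panel per array, points in runs coloured, the 2-fold level dotted and the scanner's upper limit dashed. Columns of coloured points stand on both ES arrays, densest in the first 150 kb, and the EB arrays have a single column at 77.8 kb.

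Fixed windows of 2 kb, whose borders do not depend on the signal, gave the same direction. In a limma model over all 15810 windows of the array with at least 5 probes, 15 of the 150 tested windows of the flank (10%) were higher in ES (Benjamini-Hochberg adjusted p under 0.05), against a background of 0.702% of all windows. None of the 150 was higher in EB (3 at an unadjusted p under 0.05), against 0.12% of all windows, and with the replicate as a block 2 were (1.33%, against 0.196% of all windows). The median EB minus ES difference was -0.038 log2 units over the flank windows and -0.0036 over all windows. The 15 windows had differences of -0.48 to -4.39 log2 units. All 15 contained probes that lay in ES runs, which were chosen on the same Cy5 values. The flank had 34 windows with such probes, and 6 windows with an ES mean of at least 1 log2 unit were not called. With the replicate as a block 28 windows (18.7%) were higher in ES, and the share over all windows was 1.28%. Calls in this fit were thus more frequent over the whole array as well. Windows shown by their median probe gave 6 calls (4%, against 0.234%), and windows of 5 kb gave 8 (12.1%, against 0.838%).

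Of the 15 windows, 13 were among the 63 tested in the first 150 kb and 2 among the 87 beyond. The largest difference was in the window from 137136000 to 137137999 (20 probes). Its signal was 3.70 and 5.004 log2 units in ES against -0.0063 and -0.061 in EB, a difference of -4.39 ± 0.38 (SE, limma adjusted p = 0.0051). With robust eBayes this call was lost (limma adjusted p = 0.9999). The window from 137058000 to 137059999 (38 probes) had 4.20 and 4.05 in ES against 0.038 and 0.14 in EB, with a difference of -4.04 ± 0.068 (SE, limma adjusted p = 1.3e-05). Both ES replicates lay far above both EB replicates in each of these windows. In the ES runs from 137057936 to 137059545, 77.4% and 93.5% of the probes were less than 2-fold below saturation on ES replicates 1 and 2. Saturation can narrow the spread between arrays, so that the SE and p of such windows may be too small. This was not tested.

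The window from 137086000 to 137087999 (43 probes) had 2.40 and 3.57 log2 units in ES against -0.047 and -0.0071 in EB (difference -3.02 ± 0.34, SE, limma adjusted p = 0.0167). Its call did not hold with the ratio to input (limma adjusted p = 0.0538), with the median probe (0.127) or with robust eBayes (0.9999). In the fits without EB replicate 1 or without EB replicate 2 the window was not called either, with differences of -2.995 and -3.04. The neighbouring window from 137088000 (44 probes) had 2.47 and 2.90 in ES against 0.052 and 0.13 in EB (difference -2.60 ± 0.13, SE, limma adjusted p = 0.0005). This call was lost when the median probe was used (limma adjusted p = 0.319), and 26 of its 44 probes lay in ES runs. The window from 137132000 (10 probes) had 2.72 and 3.14 in ES against 0.016 and 0.068 in EB (difference -2.88 ± 0.13, SE, limma adjusted p = 0.00027). A window with a larger difference than these 3 was not called: that from 137140000 (11 probes) had 2.47 and 4.87 in ES against 0.032 and 0.13 in EB (difference -3.59 ± 0.70, SE, limma adjusted p = 0.185). The direction of the 5 called windows was the same under all 14 alternatives run.

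In the same fit over single probes, 287 of the 3938 members (7.29%) were higher in ES, against 0.517% of all tiling probes. Of these, 278 lay in ES runs, and their median EB minus ES difference was -4.66 log2 units. Only 2 members (0.0508%) were higher in EB, against 0.069% of all tiling probes, and both lay in EB runs. With the replicate as a block, 370 members (9.40%) were higher in ES, against 0.767% of all tiling probes, and 22 (0.559%) in EB, against 0.0994%. With quantile normalization 22 (0.559%) were higher in EB, against 0.216%. The share higher in EB thus lay below the background in the first fit and above it in the other 2. Fits that left out 1 array kept a single array in 1 group, so that their counts of called probes and windows are only listed below and not interpreted. Of the 315 probes that lay in runs on both ES arrays, 266 were called. Runs and calls use the same Cy5 values, so that the overlap of the 2 is a description only.

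Along the flank, the mean ES signal was highest in the first 50 kb, next to the strongest signal of the region. It was 0.75 and 1.02 log2 units there on ES replicates 1 and 2. The share of probes in runs was highest in that bin on ES replicate 1 and from 50 to 100 kb on ES replicate 2. In the first 50 kb (851 probes), runs held 16.6% and 18.7% of the probes in ES, and none in EB. From 50 to 100 kb (643 probes) the shares were 12.6% and 18.97% in ES against 1.56% and 4.20% in EB, and from 100 to 150 kb (399 probes) 9.52% and 12.5% in ES and 0 in EB. These 3 bins, of 7, held most of the ES signal. From 150 to 200 kb (349 probes) ES replicate 1 had no run and ES replicate 2 had 2.29%. The share then stood at 7.76% and 8.87% from 200 to 250 kb (451 probes), 1.20% and 2.67% from 250 to 300 kb (748 probes), and 2.82% on both ES arrays in the last 50 kb (497 probes). The profile was therefore not a steady decline: the bin from 200 to 250 kb lay above its neighbours on both ES arrays. The first 175 kb held 14.7% ± 2.50 and the other 175 kb 3.63% ± 0.88 of their probes in ES runs (SD, n = 2). Bins of 1 region are not independent replicates, and differences between them were not tested.

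**Figure D2:**
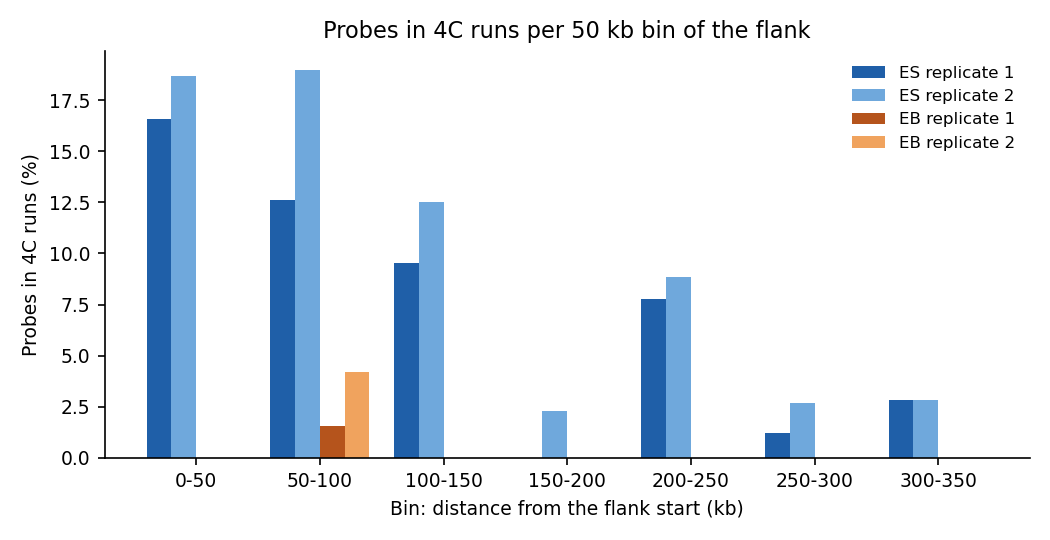
Share of probes in 4C runs (percent) in each 50 kb bin of the flank, by distance from its start in kb, with 1 bar per array. The ES bars are tallest in the first 3 bins (9.52% to 18.97%) and stand higher again at 200 to 250 kb (7.76% and 8.87%), and EB bars stand only at 50 to 100 kb (1.56% and 4.20%).

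The ES signal came in short runs. ES replicate 1 had 26 runs and ES replicate 2 had 32, with a median of 10.5 probes on both arrays and lengths of up to 1610 and 1691 bp. Counting only bases inside the flank, the runs covered 14040 bp (4.01%) and 18479 bp (5.28%) of its length. EB replicate 1 had 2 runs, covering 376 bp, and EB replicate 2 had 3, covering 1034 bp. When probes positive on 2 or more of the 4 arrays were joined, 28 sites resulted, of which 25 were positive on both arrays of ES and neither of EB (ES-only sites). Since these sites were chosen on the signal, their values are a description with no test. Their number was 23 in the first 150 kb and 5 beyond, and all 14 sites of 10 or more probes were ES-only.

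The ES-only sites had a median of 11 probes and 518 bp. Their mean signal was 1.33 to 5.48 log2 units on ES replicate 1 (median 3.11) and 2.45 to 5.33 on ES replicate 2 (median 5.08). On EB replicate 1 it was -0.16 to 0.65 (median 0.0093) and on EB replicate 2 -0.068 to 0.42 (median 0.033). On the EB arrays these sites thus lay below the 2-fold level, most of them near the array median. The site from 137153041 to 137153402 had the highest EB means, 0.65 and 0.42 on EB replicates 1 and 2. Of their 332 probes, 2 were positive on EB replicate 1 and 1 on EB replicate 2. With EB set at the 2-fold level, as a bound, the ES signal was at least 2.02- to 20.2-fold higher (median 8.80).

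**Figure D3:**
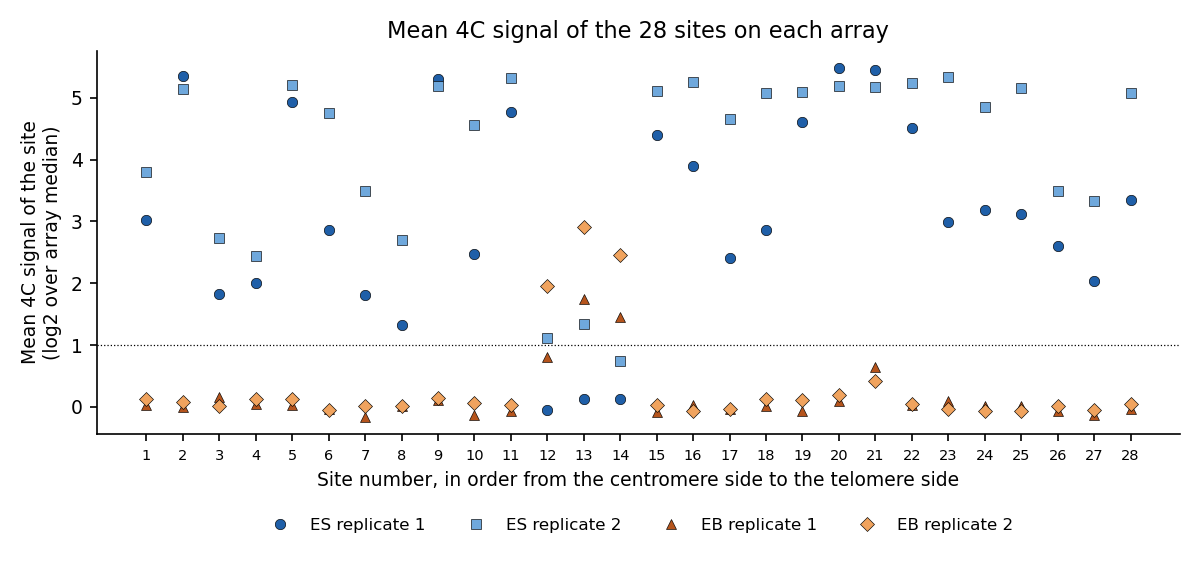
Mean 4C signal (log2 over the array median) of the 28 sites of the flank on each array, numbered from the centromere side to the telomere side. Blue symbols (ES) stand between 1.33 and 5.48 at the 25 ES-only sites while the orange symbols (EB) stay below the dotted 2-fold level, and sites 12 to 14 are the only ones with an EB mean above it.

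The site with the most probes straddled the start of the flank, from 137049316 to 137050642, with 15 of its 32 probes inside. It had 3.02 and 3.805 log2 units in ES against 0.031 and 0.12 in EB, so that ES was at least 5.32-fold higher. About 7.3 kb farther, the site from 137057936 to 137059545 (31 probes) had 5.36 and 5.13 in ES against 0.00090 and 0.078 in EB, at least 18.98-fold. Probes less than 2-fold below saturation made up 77.4% and 93.5% of it in ES, so that its height is cut off by the scanner on both ES arrays and the fold is a lower bound for that reason too.

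A cluster of 5 ES-only sites lay between 137085084 and 137089861. Its first member, from 137085084 to 137086364 (31 probes), had 4.93 and 5.20 log2 units in ES against 0.024 and 0.12 in EB, at least 16.8-fold. Its second, from 137086996 to 137087729 (20 probes), differed between the ES replicates, with 2.85 and 4.75, and had -0.031 and -0.054 in EB, at least 6.99-fold. The last, from 137089136 to 137089861 (17 probes), had 5.29 and 5.19 in ES against 0.12 and 0.15 in EB, at least 18.9-fold. On ES replicate 2, 75% or more of the probes of each of these 3 sites were less than 2-fold below saturation.

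A second group of long sites lay between 137136823 and 137155435. The site from 137136823 to 137137756 (19 probes) had 3.90 and 5.26 log2 units in ES against 0.031 and -0.060 in EB, at least 12.0-fold. The site from 137147449 to 137148382 (18 probes) had 5.48 and 5.20 in ES against 0.098 and 0.19 in EB, at least 20.2-fold, the highest bound of the flank. The site from 137154606 to 137155435 (24 probes) had 4.52 and 5.24 in ES against 0.024 and 0.041 in EB, at least 14.7-fold. All 3 lay near the limit over all of their probes on ES replicate 2.

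Beyond 150 kb the sites were few and far apart. The site from 137258045 to 137258926 (17 probes), 208 kb from the start, followed 81895 bp without a site. It had 3.18 and 4.85 log2 units in ES against 0.016 and -0.067 in EB, at least 8.08-fold. The next, from 137264133 to 137264818 (18 probes), had 3.11 and 5.16 in ES against 0.023 and -0.068 in EB, at least 8.80-fold. Of their probes, 76.5% and 100% were less than 2-fold below saturation on ES replicate 2, against 11.8% and 0% on ES replicate 1. The most distant site of the flank began at 137372299 (14 probes) and had 3.35 and 5.08 in ES against -0.034 and 0.055 in EB.

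The height of a site depended on the ES array. ES replicate 2 lay above ES replicate 1 at 21 of the 25 ES-only sites, by -0.29 to 2.34 log2 units (median 0.90). At least 50% of the probes were within 2-fold of the upper limit on both ES arrays at 5 of these sites, on ES replicate 2 alone at 13, and on neither at 7. Levels of different sites are therefore not ranked here, and the measured ES to EB differences of the brightest sites may be too small by an unknown amount.

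Runs on the EB arrays lay in a single place. From 137127147 to 137128444 (1298 bp, 33 probes), 77.8 kb from the start, lay every probe of the flank that was in a run on an EB array. The mean over these 33 probes was 0.092 and 0.62 log2 units on ES replicates 1 and 2 and 0.98 and 1.87 on EB replicates 1 and 2. Positive probes numbered 0, 9, 13 and 29 on the same arrays, and probes in runs 0, 7, 10 and 27. EB lay above ES at 32 of the 33 probes within each replicate, but ES replicate 2 also lay above ES replicate 1 at 31. None of its probes came near the scanner's limit. The stretch was chosen on these values, so that they are a description.

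The core of this stretch was made up of 3 sites. The site from 137127355 to 137127508 (4 probes) had 0.13 and 1.34 log2 units in ES against 1.75 and 2.91 in EB. That from 137127547 to 137127768 (6 probes) had 0.12 and 0.74 in ES against 1.46 and 2.45 in EB. These 2 were the only sites of the flank that were positive on both EB arrays, and ES replicate 2 was positive at the first of them too. The remaining site, from 137127147 to 137127300 (3 probes), was positive on both replicate 2 arrays alone, with -0.051 and 1.11 in ES against 0.81 and 1.96 in EB. In this stretch the input channel stood above the array median as well, at 0.35 and 0.46 log2 units in ES against 0.84 and 0.36 in EB (medians over probes). The part of the input level in this signal was not tested beyond reading the ratio.

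In the window test this stretch did not pass. The window from 137126000 (30 probes) had 0.084 and 0.59 log2 units in ES against 0.85 and 1.62 in EB, a difference of 0.89 ± 0.27 (SE, limma adjusted p = 0.825). The window from 137128000 (9 probes) had 0.17 and 0.43 in ES against 0.79 and 1.37 in EB, a difference of 0.78 ± 0.19 (SE, limma adjusted p = 0.439). Within replicates 1 and 2 the EB array was the higher in both windows. With the replicate as a block both windows were called (limma adjusted p = 0.00047 and 0.0023), and with quantile normalization too (0.0058 and 0.00017). Neither was called with normexp (limma adjusted p = 0.216 and 0.0867), with the ratio of Cy5 to Cy3 (0.99997 for both) or with robust eBayes (0.9999 for both). The differences of the 2 windows were 1.28 and 1.07 log2 units without EB replicate 1, and 0.51 and 0.49 without EB replicate 2. The window from 137122000 (12 probes), the next in size on the EB side, had -0.038 and -0.0013 in ES against 0.053 and 0.21 in EB, and did not pass (limma adjusted p = 0.9999).

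The 2 single probes higher in EB both lay here. The probe from 137127615 to 137127664 had 0.25 and 0.43 log2 units in ES against 1.69 and 1.60 in EB (limma adjusted p = 0.0159). The probe from 137128135 to 137128184 had 0.16 and 0.65 in ES against 1.92 and 2.59 in EB (limma adjusted p = 0.024). Both ES arrays were below the 2-fold level and both EB arrays above it at these probes. With the ratio of Cy5 to Cy3 neither was called, since 0 members were then higher in EB.

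**Figure D4:**
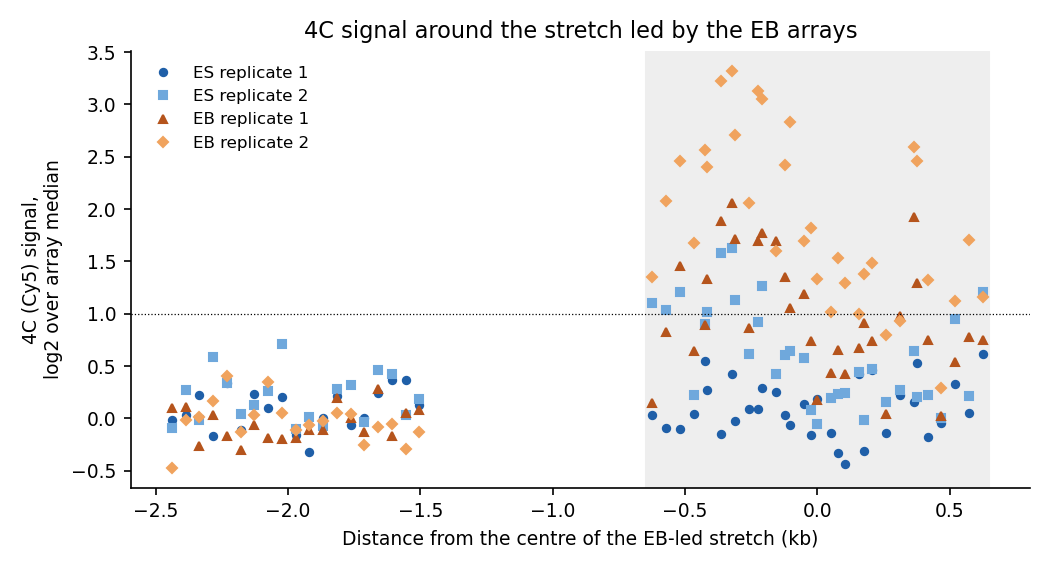
The 4C signal (log2 over the array median) of the single probes within 2.5 kb of the centre of the stretch led by the EB arrays, by distance from that centre in kb; the shaded band is the stretch of 33 probes and the dotted line the 2-fold level. EB replicate 2 (up to 3.32) and EB replicate 1 (up to 2.06) stand above ES replicate 2 (up to 1.62) and ES replicate 1 (up to 0.62) in the band, and all 4 arrays lie near 0 to its left.

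Long parts of the flank had no run on any array. The longest such stretch ran from 137176150 to 137244927 (68778 bp, 360 probes). There 5, 8, 2 and 6 probes were positive on ES replicates 1 and 2 and EB replicates 1 and 2, and the mean signal was 0.059, 0.093, -0.0041 and 0.023 log2 units. The next ran from 137264983 to 137326830 (61848 bp, 738 probes) and another from 137336812 to 137372298 (35487 bp, 397 probes). In these parts the probes of both cell states lay at the level of the array median, apart from scattered single probes. The longest stretch was sparsely probed in part: between 137183999 and 137202000 no 2 kb window held the 5 probes needed for the test.

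The 2 arrays of a group overlapped in their run probes, in unequal shares. Of the 318 probes in runs on ES replicate 1, 315 lay in runs on ES replicate 2 as well, which is 99.1% of the first set and 76.3% of the second. All 10 run probes of EB replicate 1 were among the 27 of EB replicate 2 (100% and 37.0%). Run probes of ES replicate 1 included none of either EB array, and those of ES replicate 2 included 4 of the 10 of EB replicate 1 (40%) and 7 of the 27 of EB replicate 2 (25.9%), which are 0.969% and 1.69% of its own 413, all in the stretch led by EB.

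The run probes of an array can be read on the arrays that had no part in their choice. Probes in runs on ES replicate 1 had a median of 5.16 log2 units on the other ES array, and of 0.013 and 0.045 on EB replicates 1 and 2. Probes in no run on any of the 4 arrays, a set that all arrays chose and of which 44, 89, 12 and 80 were positive, had medians of 0.016 and 0.050 in ES against 0.0034 and 0.022 in EB. On the EB arrays the medians of both sets lay within 0.05 log2 units of the array median. The 98 probes in runs on ES replicate 2 but not on ES replicate 1 had medians of 0.64 on the first array and 1.999 on the second, and 22 of them were positive on ES replicate 1.

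**Figure D5:**
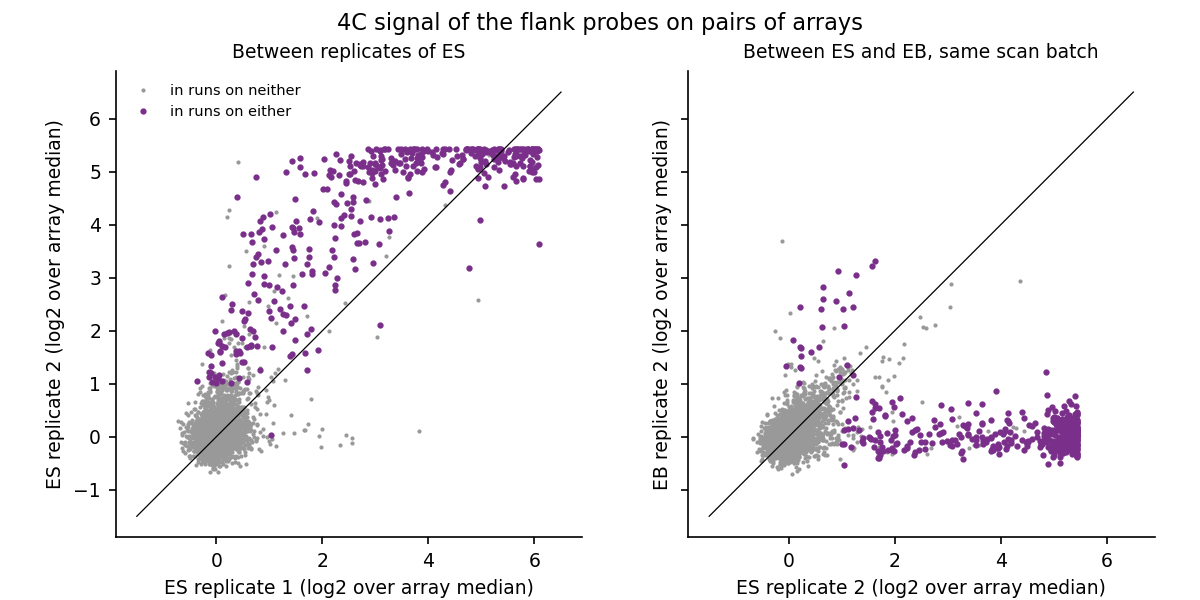
The 4C signal of each flank probe (log2 over the array median) on pairs of arrays, with the line of equality; purple points lie in runs on either array of the pair. Between the ES replicates (left) the purple points are high on both axes and flatten at the limit of ES replicate 2 (5.43), while between ES replicate 2 and EB replicate 2 (right) they spread along the ES axis near 0 on the EB axis, apart from the few of the stretch led by EB.

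The input channel did not set the ES run probes apart in a constant direction. For the 315 probes in runs on both ES arrays, the input channel had medians of 0.28 and -0.25 log2 units, also centred per array, in ES against -0.066 and -0.13 in EB. For probes in no run it was -0.015 and 0.040 in ES against 0.010 and 0.0028 in EB.

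The flank lay between a stretch with more ES signal and one with less. In the 100 kb before it (2067 probes), runs took up 45.3% ± 7.63 of the probes in ES against 8.68% ± 0.034 in EB (SD, n = 2). In a stretch of 350 kb on the centromere side of those 100 kb (4535 probes) the values were 18.02% ± 3.37 in ES (SD, n = 2) against 2.71% on each EB array. In the next 350 kb towards the telomere (4655 probes) they were 3.05% ± 0.82 in ES (SD, n = 2) against 0 on each EB array. Outside the distal region the means were 0.0788% in ES against 0.0409% in EB. The flank held 12.7% and 12.2% of all run probes of the ES arrays and 2.26% and 5.43% of those of the EB arrays. These differences between stretches were not tested.

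The lower bound of the flank cut through ES signal and the upper bound did not. In the 10 kb before the start (197 probes), runs held 41.6% and 63.5% of the probes in ES, and in the first 10 kb inside (133 probes) 34.6% and 37.6%. Both EB arrays had none on either side. At the far end, no probe lay in a run on any array in the last 10 kb inside (52 probes) or in the first 10 kb outside (101 probes).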

How the data were processed

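Per the labels and file headers, the authors hybridised 4C product (Cy5) with input DNA (Cy3) to custom mm6 arrays of 50-base probes. The deposited unit is intensity for each spot in either colour, from NimbleScan 2.3.78 (replicate 1) and 2.3.18 (replicate 2), per the file headers. The sources used here do not say whether the values had been normalized.

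Random controls were left out and 6 repeated tiling spots averaged. Log2 Cy5 intensity was centred on each array's tiling median, with no background correction, loess or quantile step. Probes, and means of 2 kb windows with at least 5 probes, were tested over the whole array with limma 3.58.1 (lmFit and eBayes, group means, R 4.3.3, two-sided, Benjamini-Hochberg, threshold 0.05), after a check on simulated data. Other steps used Python 3.11.15, pandas 2.3.3 and matplotlib 3.10.9. Single values per array were compared by exact permutation. The lower bound of a fold sets EB at the 2-fold level.

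The flank, the rules for runs and the lists were chosen with earlier results of these data known. Named are, per direction, the 5 windows with the largest difference among those past the threshold whose groups did not overlap (where none passed, the 3 with the largest non-overlapping difference), the 10 sites with the most probes, every site positive on both EB arrays and the longest stretch without a run. The stretch led by EB, the uncalled window at 137140000, the site at 137372299, 1 site beside those of EB and the single probes were added after their values were seen.

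Arrays with the same replicate number were scanned on the same day, per the file headers, which pairs them; their deviations from the group means had a correlation of 0.213 over 15810 windows. Alternatives were normexp (offset 50), quantile normalization, centring on random controls, the ratio of Cy5 to Cy3, leaving out the 20% of probes with the dimmest input, other levels, run lengths, gaps and windows, robust eBayes, the replicate block, leaving out each array and, chosen after seeing the data, region-labelled probes only. Sequences of probes were not used here.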

Additional observations from a re-analysis of the deposited data

How the results depend on the processing

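The ES minus EB difference in the share of probes in runs was 7.61 to 10.02 percentage points under all 15 alternatives run, and that of the mean signal 0.052 (median over probes) to 0.57 log2 units under 12, with no reversal. Leaving out each array in turn gave 7.61 to 10.02 points and 0.32 to 0.50 log2 units. With the replicate as a block the exact p was 0.5, the smallest that 2 pairs allow. Counts of calls moved more, and the cause was not tested. The share called over the whole array moved too. With the ratio to input 4.49% of the flank probes were higher in ES, against 0.254% of all tiling probes. With robust eBayes 4.60% were, against 0.351%. The share higher in EB was 0.254% with normexp, against 0.106%, and 0 with the ratio, against 0.0556%. Counts from fits that left out an array are listed without a share and not interpreted, since 1 group then held a single array. Probes higher in ES numbered 177 with the ratio to input and 181 with robust eBayes, and 213 to 438 when each array was left out. Probes higher in EB numbered 10 with normexp, 22 with quantile normalization, 0 with the ratio, 22 with the replicate block and 1 to 17 when each array was left out. Windows higher in ES numbered 28 with the replicate block, 23 with windows of 1 kb, 8 with windows of 5 kb, 6 with the median per window and 11 to 32 when each array was left out. These counts have different numbers of tested windows. With windows of 1 kb, 259 were tested in the flank and 8.88% were higher in ES, against 0.595% of all windows. With windows of 5 kb, 66 were tested and 12.1% were higher in ES, against 0.838%. Windows higher in EB numbered 2 with quantile normalization (1.33%, against 0.31%) and 2 with the replicate block (1.33%, against 0.196%). With normexp there were 55 sites, of which 28 were ES-only. The direction was kept by the 8 named windows under the alternatives run for them. Besides these counts, the block gave 370 probes higher in ES (9.40%, against 0.767% of all tiling probes). The block also brought the windows from 137126000 and 137128000 past the threshold, and it changed no call of the other 6 named windows. The scanner's limit and the gaps in tiling bound what can be read. Heights near the limit are cut off, which can also narrow the spread between arrays, and unprobed sequence has no value.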

Other observations

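The 154 flank probes without a region label lay in 26 clusters (at a separation of over 1 kb) and carried 4C signal more often than the labelled ones. Of these probes, 33.1% and 42.2% lay in runs in ES against 1.95% and 4.55% in EB, against 7.06% and 9.20% in ES against 0.185% and 0.529% in EB for the 3784 labelled probes. Labelled probes within 100 bp of an unlabelled one (376 probes) had nearly the shares of the unlabelled ones, with 32.4% and 40.2% in ES against 1.86% and 3.99% in EB. Labelled probes farther away (3408) had 4.25% and 5.78% in ES against 0 and 0.147% in EB. These values were looked at after the data had been seen and were not tested. Per the series' design text, array locations were chosen with a genome-wide 4C screen that included ES cells and embryoid bodies. The sources used here do not say whether the unlabelled probes came from that screen. The higher share of the unlabelled probes is therefore not read as an independent result.

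At 15 positions of the flank a probe was present under both kinds of label. The signals of the members of a pair differed by a median of 0.21 and 0.19 log2 units in ES against 0.18 and 0.078 in EB. Both members fell on the same side of the 2-fold level at 13 of 15 positions on ES replicate 1 and at all 15 on each of the other arrays. Of these pairs, 3 and 5 were positive in ES and 0 in EB.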
